A study of Mus musculus with 60 samples.

Results

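Sterol genes were followed in Balb/c 3T3 cells, a mouse embryo fibroblast line, over 5 days of culture and under 4 carcinogenic or toxic chemicals. The genes were chosen by name, as those that make cholesterol, control its synthesis, move it inside the cell, limit its uptake or export it. Of 31 listed genes, 28 had a probe set that the platform's gene table names, out of 18194 gene symbols on the array, and all 28 were among the 12650 genes tested. They were 17 synthesis enzymes, 4 regulators of synthesis, 3 proteins of movement inside the cell, and 4 genes of the liver X receptor (LXR) and efflux side. Acat2, Nr1h2 and Soat1 had no probe set under these names and are not analysed here. Uptake was covered only by Mylip, a ligase that marks lipoprotein receptors for degradation.

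Cholesterol is built from acetyl-CoA through mevalonate and farnesyl diphosphate to squalene, which is closed into the first sterol, lanosterol, and trimmed to cholesterol. When membranes of the endoplasmic reticulum are poor in cholesterol, the escort Scap carries the transcription factor precursor Srebf2 to the Golgi, where it is cut and released to switch on synthesis genes. Insig1 and Insig2 hold Scap back when sterols are plentiful. When sterols are abundant, LXR receptors such as Nr1h3 switch on the exporters Abca1 and Abcg1 and the ligase Mylip. Growing fibroblasts need new membrane and make cholesterol or take it up from serum.

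Promoter sequence is shown for 4 synthesis enzymes and for Abca1, because the enzymes moved together and Abca1 moved the other way in the time comparison given further on. RefSeq (GRCm38.p6) held 300 bases around the transcription start for 25 of the 31 listed genes. The motif TCACNCCAC, a form of the sterol regulatory element that Srebf2 binds, was searched on both strands and lay in 1 of these 25 windows, that of Hmgcs1, with its first base at -137 from the start. It lay in 1.24% of 32851 promoters of the same length. Its shorter core CACNCCAC, which overlaps it, was in 3 windows (Acat2, Hmgcs1 and Insig1) and in 6.24% of all promoters. The CCAAT box, written CCAAT or ATTGG by strand, was in 14 of 15 synthesis windows and in 37.4% of all promoters. It was also in 3 of 4 regulator windows, 2 of 2 movement windows and 1 of 4 windows of the LXR and efflux genes. The E-box CACGTG was in 6 of the 25 windows, Abca1 among them, and in 7.15% of all promoters. A match describes letters and not a used site. The sequences are the 160 bases before the start, 5′ to 3′ on the gene's strand, with these motifs in capitals. They lie at chr13:119690191-119690350 (plus strand) for Hmgcs1, chr13:8885446-8885605 (plus) for Idi1, chr8:122443423-122443582 (minus) for Mvd, chr8:64733579-64733738 (minus) for Msmo1 and chr4:53159896-53160055 (minus) for Abca1.
Hmgcs1: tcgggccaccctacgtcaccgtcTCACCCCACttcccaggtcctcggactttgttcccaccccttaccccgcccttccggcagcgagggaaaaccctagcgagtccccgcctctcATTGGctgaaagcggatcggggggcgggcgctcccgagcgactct
Idi1: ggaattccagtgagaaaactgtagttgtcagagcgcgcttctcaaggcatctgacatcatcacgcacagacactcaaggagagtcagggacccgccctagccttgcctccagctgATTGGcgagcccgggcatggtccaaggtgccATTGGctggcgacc
Mvd: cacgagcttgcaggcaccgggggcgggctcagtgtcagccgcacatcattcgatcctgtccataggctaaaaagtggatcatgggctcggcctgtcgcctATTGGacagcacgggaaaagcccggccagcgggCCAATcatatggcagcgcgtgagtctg
Msmo1: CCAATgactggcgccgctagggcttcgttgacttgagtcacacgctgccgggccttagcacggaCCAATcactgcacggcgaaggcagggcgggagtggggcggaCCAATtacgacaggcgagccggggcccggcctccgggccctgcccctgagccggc
Abca1: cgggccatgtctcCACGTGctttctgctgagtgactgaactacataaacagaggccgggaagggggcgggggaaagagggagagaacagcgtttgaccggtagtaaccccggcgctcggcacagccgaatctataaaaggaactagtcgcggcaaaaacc
Only Hmgcs1 shows the sterol element in this stretch. Idi1, Mvd and Msmo1 each show more than 1 CCAAT box, and Abca1 shows none. The printed genes do not stand for all: the windows of Npc2 and Mylip, which rose over time in set 1, also held CCAAT boxes. So did that of Tm7sf2, an enzyme that did not pass.

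RNA was measured on 60 single-colour arrays in 20 groups of 3, in 2 sets with separate controls. All groups, controls included, were Balb/c 3T3 cultures of 1 line from a supplier, in the medium labelled M10F, and controls received 0.75% DMSO, the solvent. Set 1 used concentrations from the literature, the same at 24 h and 120 h: 25 µM 2-acetylaminofluorene (AAF), 0.5 µM benzo(a)pyrene (BaP), 50 µM 2,4-diaminotoluene (DAT) or 2 µM 3-methylcholanthrene (MCA). Set 2 used concentrations meant to cause a fixed mild toxicity. At 24 h these were 1.5 µM BaP, 20 µM MCA, 700 µM DAT or 10 µM AAF, and at 120 h they were 0.1 µM BaP, 0.1 µM MCA, 0.2 µM DAT or 10 µM AAF. Placement of 20 µM MCA and 0.2 µM DAT in set 2 was inferred from labels that do not call them literature concentrations. Each set had DMSO controls at each time. Whether a group's 3 arrays stand for separate cultures is not stated, and p-values therefore reflect array-to-array spread that may be technical.

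Array medians lay between 41.2 and 47.1 intensity units in set 1 and between 56.3 and 98.9 in set 2, which had been scaled higher before deposit, so no level was compared across the sets. Arrays of a group also spread less in set 1, where the residual SD had a median of 0.115 log2 units, than in set 2, where it was 0.218, and each set was fitted alone. All 6 fibroblast markers, among them Vim and Col1a2, lay above the array median on all 60 arrays. Of the 15 markers of epithelial, endothelial, macrophage and adipocyte cells, 14 had a named probe set and 7 of these passed the filter for testing, while Krt18, Pecam1, Cdh5, Ptprc and Adipoq did not lie above the median on any array. Of the others, Csf1r lay above it on 59 arrays, Epcam on 53, Adgre1 on 29, Cd68 on 23, Pparg on 20, Krt8 on 13, Fabp4 on 12 and Cdh1 and Kdr on 1 each. The 3′ over 5′ ratio of the actin control probe sets, a sign of RNA integrity, averaged 0.288 log2 units at 24 h and 0.309 at 120 h in the set 1 controls, and 0.289 and 0.537 in those of set 2. Among the 28 sterol genes, Nr1h3 was above the median on only 4 arrays, Abcg1 on 33 (all 30 of set 1), Tm7sf2 on 54 and Mvd on 55.

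In the DMSO controls, the cholesterol synthesis pathway fell almost as a whole between 24 h and 120 h, in both sets. The largest falls came in the middle of the pathway. Idi1, which isomerises the 5-carbon unit, Fdps, which joins such units to farnesyl diphosphate, and Mvd, which makes the unit by decarboxylation, fell by 7.19 to 7.98 fold in set 1. A fall in level on an array cannot tell fewer cells making a transcript from less of it per cell. Changes are log2 differences of log2(intensity + 16) ± SE with 3 arrays a group, tested with limma and called at an adjusted p of 0.05 over all genes tested. The added 16 understates changes of dim genes.

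Of the 17 enzymes, 16 fell in set 1 and none rose, against 28.5% of all genes lower. Their median change was -1.61, against 0.00 over all genes tested. In set 2, 15 of 17 fell and none rose, against 22.4% of all genes lower, with a median of -1.43 against -0.05. The highest adjusted p among the enzymes that fell was 7.21e-05 in set 1 and 9.33e-05 in set 2. The exceptions were Tm7sf2, a reductase of the lanosterol branch, at 0.24 ± 0.12 in set 1 and -0.01 ± 0.20 in set 2, and in set 2 the isomerase Ebp at -0.14 ± 0.14. Ebp fell by 0.42 ± 0.08 in set 1.

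Idi1 read 827, 1000 and 1134 intensity units in the 24 h controls of set 1 and 97.1, 112 and 124 at 120 h. In set 2 the Idi1 values were 2469, 3116 and 2377, then 251, 417 and 511. No array of one time overlapped the other time in either set. The Idi1 change was -3.0 ± 0.11 (adjusted p = 3.72e-18) in set 1 and -2.88 ± 0.22 (adjusted p = 7.73e-11) in set 2.

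Fdps read 3117, 2846 and 3104 at 24 h and 374, 364 and 357 at 120 h in set 1. In set 2 it read 6537, 6990 and 9530, then 863, 1008 and 1949. The groups did not overlap, and in set 2 the array numbered 3 was the highest for Fdps in all 10 groups. The change was -2.95 ± 0.07 (adjusted p = 2.1e-22) and -2.55 ± 0.36 (adjusted p = 3.02e-06).

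Mvd read 393, 326 and 375 at 24 h in set 1 and 36.2, 38.7 and 42.3 at 120 h, where none of the 3 control arrays lay above the array median. In set 2 the values were 882, 821 and 811, then 206, 176 and 265. The change was -2.85 ± 0.11 (adjusted p = 2.3e-18) in set 1 and -2.20 ± 0.20 (adjusted p = 2.59e-09) in set 2, again with no overlap. 

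The enzymes before and after these moved less. At the entry, Hmgcs1, which condenses acetyl units into the mevalonate precursor, fell by 1.50 ± 0.09 in set 1 and 1.14 ± 0.15 in set 2. The kinases Mvk and Pmvk fell by 1.56 ± 0.09 and 1.24 ± 0.09 in set 1. Fdft1, which makes squalene, fell by 2.01 ± 0.08 and 1.84 ± 0.13 in the sets in turn. Sqle, the epoxidase that follows, fell by 1.31 ± 0.05 and 1.43 ± 0.14. The cyclase Lss fell by 2.01 ± 0.08 and 2.14 ± 0.16.

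Among the enzymes that trim lanosterol, the demethylation enzymes Msmo1 and Nsdhl fell by 2.18 ± 0.06 and 2.21 ± 0.06 in set 1 and by 1.91 ± 0.21 and 1.52 ± 0.12 in set 2. Cyp51, which removes the first methyl group, fell less by the probe set used, by 1.0 ± 0.05 and 0.81 ± 0.09. That probe set was the brightest of the enzymes, at 1870 to 6601 intensity units over set 1, although probes of different genes are not on 1 scale. Its other probe sets, above the array median on all 60 arrays, changed by -1.4 and -1.43 in set 1 and by -1.17 and -0.94 in set 2. The size of the Cyp51 fall thus depended on the probe set. Hsd17b7 fell by 1.28 ± 0.13 and 1.16 ± 0.15, Sc5d by 1.76 ± 0.06 and 1.13 ± 0.19, and Dhcr7, the last reductase, by 1.61 ± 0.08 and 0.97 ± 0.18.

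**Figure D1:**
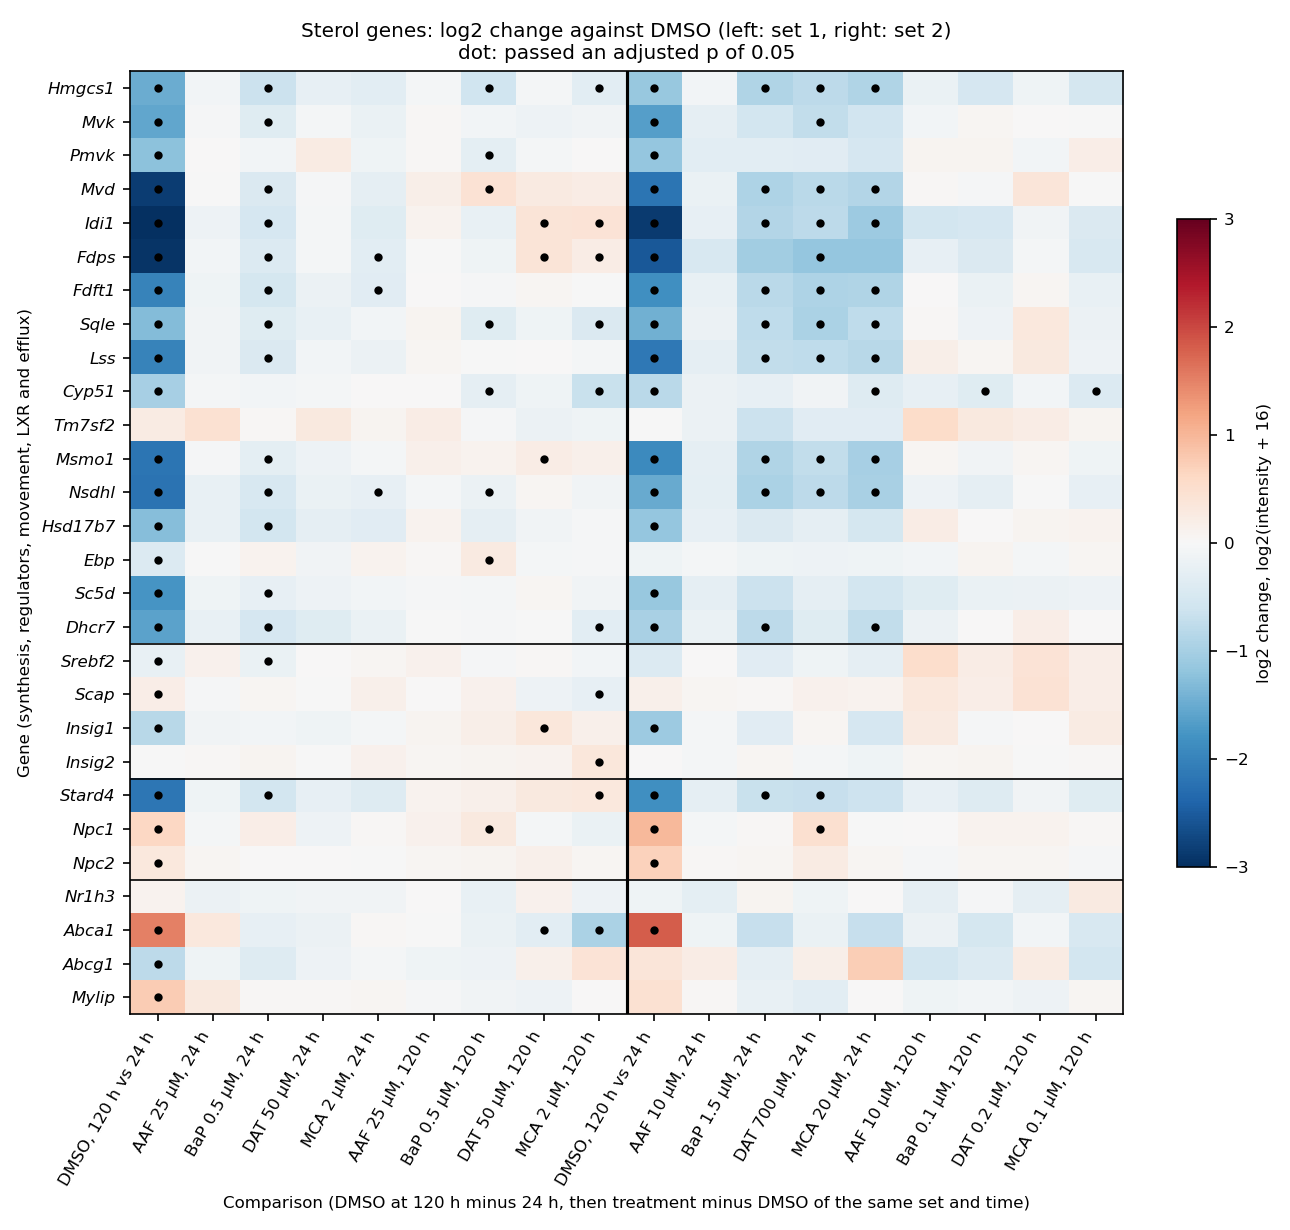
Log2 change of the 28 sterol genes (rows, ordered by role) in the DMSO time comparison and in each of 16 treatment comparisons (columns, set 1 left and set 2 right), with a dot where the adjusted p passed 0.05. The time columns are blue for nearly all synthesis enzymes and red for Abca1, Npc1 and Npc2, and the 24 h columns of BaP in both sets and of DAT 700 µM and MCA 20 µM hold most of the other blue cells with dots.

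Of the 4 regulators, Insig1 passed in both sets. Insig1, itself a target of Srebf2 in textbook accounts, read 775, 991 and 742 at 24 h and 417, 502 and 419 at 120 h in set 1. In set 2 it read 913, 850 and 723, then 468, 460 and 370. It was lower on every 120 h array, by 0.83 ± 0.12 (adjusted p = 9.23e-07) and 1.10 ± 0.17 (adjusted p = 6.57e-06) log2 units. Insig2 changed by -0.01 ± 0.07 and 0.01 ± 0.13, and neither passed. Srebf2 fell by 0.22 ± 0.06 in set 1 and was at -0.40 ± 0.20 in set 2 (adjusted p = 0.117, or 0.0469 with the array number as a block). A second Srebf2 probe set, nearly as bright at a mean of 689 against 752 intensity units, changed by -1.29 and -1.03, so the size of the Srebf2 change depended on the probe set. With the mean of both probe sets Srebf2 passed in both comparisons, at -0.76 and -0.71 (adjusted p = 2.33e-10 and 0.00179). Scap rose by 0.21 ± 0.09 in set 1 (adjusted p = 0.0378) and was at 0.15 ± 0.17 in set 2. The Scap call was lost without any 1 of 4 control arrays of set 1 (24 h replicates 2 and 3, 120 h replicates 1 and 2), with values of 0.18, 0.14, 0.18 and 0.17.

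Proteins that move cholesterol split by role. Stard4, which carries cholesterol between membranes, fell with the enzymes. It read 1068, 1051 and 1493 at 24 h and 226, 233 and 285 at 120 h in set 1, and 3461, 4168 and 3486, then 841, 932 and 1208 in set 2. The groups did not overlap, and the change was -2.17 ± 0.11 (adjusted p = 1.35e-15) and -1.84 ± 0.16 (adjusted p = 1.36e-09).

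Npc1 and Npc2, which hand cholesterol out of the lysosome, rose, against 29.3% of all genes higher in set 1 and 17.8% in set 2. Npc1 read 273, 196 and 186 at 24 h and 329, 369 and 336 at 120 h in set 1, and 443, 394 and 333, then 934, 921 and 794 in set 2. Its rise was 0.62 ± 0.09 (adjusted p = 1.93e-06) and 0.97 ± 0.14 (adjusted p = 2.44e-06), with every 120 h array above every 24 h array. Npc2 read 3948, 3205 and 3369, then 4051, 4388 and 4471 in set 1, and 8850, 8615 and 9249, then 13592, 12678 and 12611 in set 2. Its rise was smaller, 0.31 ± 0.08 (adjusted p = 0.00103) and 0.70 ± 0.09 (adjusted p = 6.15e-07). The Npc2 call of set 1 was lost with the mean of all its probe sets, and that of set 2 with each array centred on its median.

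On the efflux side, Abca1, which exports cholesterol to lipid-poor apolipoprotein, rose in both sets. It read 620, 623 and 588 at 24 h and 1696, 1671 and 1804 at 120 h in set 1, and 1511, 1942 and 1190, then 5999, 5307 and 4305 in set 2. No array overlapped, and the rise was 1.51 ± 0.11 (adjusted p = 3.55e-12), or 2.84 fold, in set 1 and 1.82 ± 0.20 (adjusted p = 3.66e-08), or 3.52 fold, in set 2. Mylip rose by 0.75 ± 0.09 in set 1 and was at 0.46 ± 0.21 in set 2 (adjusted p = 0.0797, or 0.00585 with the array number as a block). Nr1h3, dim on nearly all arrays, was at 0.10 ± 0.15 and -0.12 ± 0.29, and neither passed.

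Abcg1, the exporter to lipoprotein particles, did not follow Abca1. In set 1 it read 250, 343 and 257 at 24 h and 172, 147 and 158 at 120 h, a fall of 0.79 ± 0.19 (adjusted p = 0.000626) with no overlap. In set 2 it was dim, at 26.5, 33.2 and 26.7, then 48.1, 43.7 and 81.6, and the change was 0.36 ± 0.46 (adjusted p = 0.575). None of those 6 arrays lay above the array median.

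**Figure D2:**
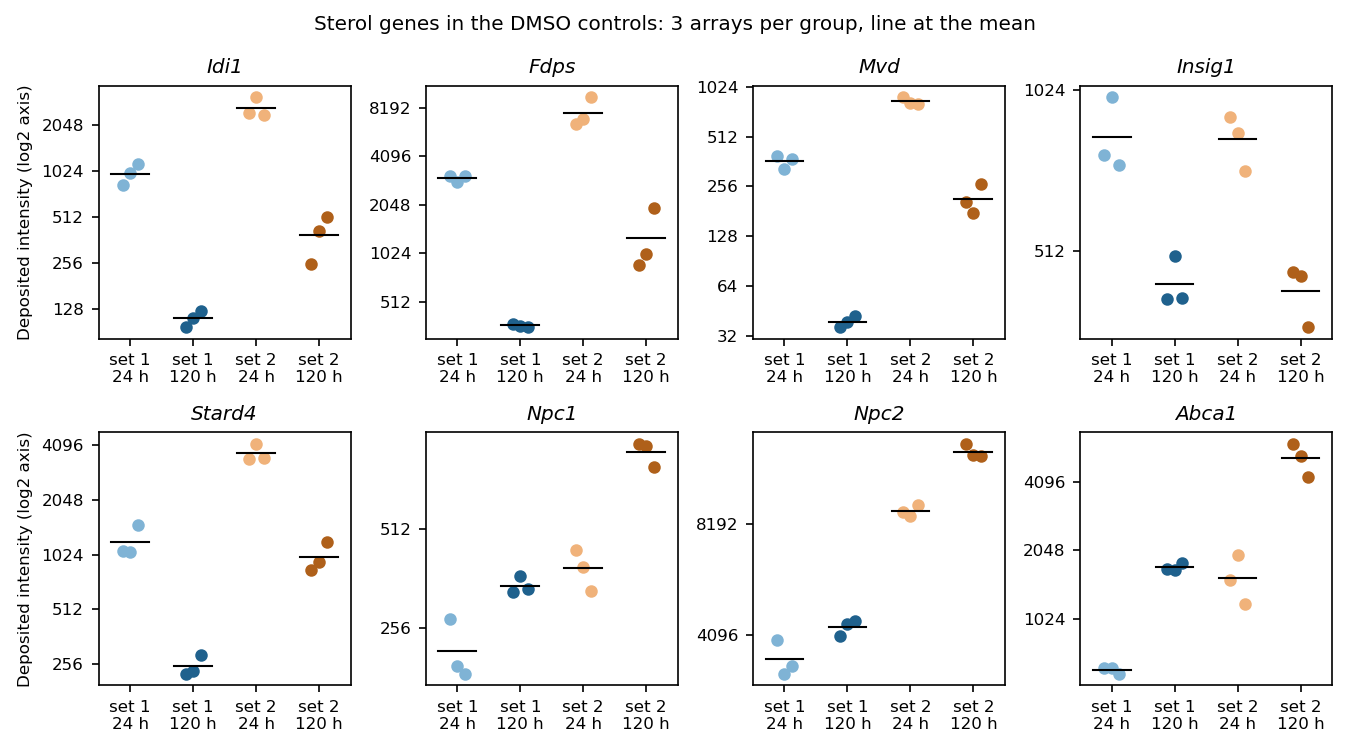
Deposited intensity (log2 axis) of 8 sterol genes on each of the 12 control arrays, by set and time, with a line at each mean. Idi1, Fdps, Mvd, Insig1 and Stard4 are lower on every 120 h array than on any 24 h array of the same set, and Npc1, Npc2 and Abca1 are higher, while levels of the 2 sets are on different scales.

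In all, 25 of the 28 genes passed in set 1 (5 higher, 20 lower) and 20 in set 2 (3 higher, 17 lower). Of all genes, 29.3% were higher and 28.5% lower in set 1, and 17.8% and 22.4% in set 2. In both sets the sterol genes called higher lay below that share and those called lower lay above it. The array scaling of set 2 mattered for the genome as a whole. Of all genes called there, 44.3% were higher after quantile normalization, 55.8% on deposited values and 16% when each array was centred on its median, and the median of all genes was then -0.05, 0.11 and -0.35. No called sterol gene turned its direction under these scalings, and Idi1 and Abca1 lay far outside that shift. The Npc2 call of set 2 was lost when each array was centred on its median. Genes of cell division fell over the same time, 11 of 11 measured in each set, with median changes of -2.24 and -1.65, and the actin 3′ over 5′ ratio was higher at 120 h in set 2. The same ratio for the Gapdh control probe sets went from -0.28 to -0.177 in set 1 and from -0.318 to -0.464 in set 2. Their part in the sterol changes was not tested.

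Of 17 other genes of sterol and acetyl-CoA metabolism tested, 5 rose and 6 fell in set 1, against 29.3% of all genes higher and 28.5% lower. In set 2, 5 rose and 5 fell, against 17.8% and 22.4%. These counts lie near those shares, and their values are given as a description. Lbr, which shares the reductase step of Tm7sf2, changed by -1.60 and -1.22, Erg28, a scaffold of the demethylation enzymes, by -1.25 and -1.32, and Aacs, which activates acetoacetate for lipid synthesis, by -1.14 and -1.23. The lysosomal lipase Lipa changed by 0.60 and 0.63 and the endocytic receptor Lrp1 by 1.56 and 1.81. The lipoprotein receptor Scarb1 changed by -1.06 and -0.90, and the phospholipid carrier Pltp by 0.71 and 1.01. All of these passed in both sets.

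Treatments at 24 h lowered the synthesis enzymes where they changed any. BaP at 0.5 µM gave the clearest fall in set 1, and BaP 1.5 µM, DAT 700 µM and MCA 20 µM gave falls of similar make-up in set 2. No synthesis enzyme rose in any of the 8 comparisons at 24 h, except that Tm7sf2 passed as higher with AAF 25 µM when the array number was a block or AAF replicate 2 was left out. The falls were smaller than those of time alone, 1.19 to 1.57 fold for BaP 0.5 µM and up to 2.25 fold in set 2. The 4 treatments of a set and time share the same 3 control arrays, so their values are given side by side and not as independent repeats.

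With BaP at 0.5 µM, 13 of 17 enzymes fell, against 4.88% of all genes lower, and the median of the enzymes was -0.42. Srebf2 and Stard4 fell as well, which made 15 sterol genes, and none rose. Hmgcs1 read 1338, 1227 and 1427, below all control arrays at 1761, 2246 and 2338, a change of -0.65 ± 0.09 (adjusted p = 8.38e-06). Idi1 read 678, 646 and 737, also below every control array, a change of -0.51 ± 0.11 (adjusted p = 0.00382). Nsdhl read 1054, 972 and 984 against 1426, 1331 and 1393 in the controls, a change of -0.47 ± 0.06 (adjusted p = 1.01e-05).

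Stard4 read 801, 816 and 833 with BaP 0.5 µM, again below the controls, a change of -0.54 ± 0.11 (adjusted p = 0.00157). Abca1 read 552, 486 and 501, lower than the controls on all 3 arrays, and its change of -0.25 ± 0.11 did not pass (adjusted p = 0.178). Cyp51, Ebp, Pmvk and Tm7sf2 were the enzymes that did not pass. Calls of Hsd17b7 (control replicate 3), Mvd (BaP replicate 3), Sc5d and Srebf2 were lost without single arrays, with adjusted p up to 0.0664, 0.0553, 0.0759 and 0.187. In 1 fit of all 60 arrays, whose pooled spread is wider for set 1, 6 sterol genes passed.

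MCA at 2 µM lowered 3 enzymes, Fdps, Fdft1 and Nsdhl, by 0.31 ± 0.07, 0.34 ± 0.08 and 0.24 ± 0.06, against 1.12% of all genes lower. Hmgcs1 (1588, 1813 and 1706) was at -0.31 ± 0.09 (adjusted p = 0.0657) and Idi1 (717, 833 and 711) at -0.37 ± 0.11 (adjusted p = 0.109), each overlapping the control arrays. The count of 3 was unstable. It was 0 without MCA replicate 2, 1 without control replicate 3 and 5 without control replicate 1, and it was 0 on deposited values, in the fit of all 60 arrays and in the fit of these groups alone. Abca1 read 547, 537 and 813, and overlapped the controls.

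In limma's fit 0 of 28 sterol genes passed with AAF 25 µM, against 0.909% of all genes in either direction, and 0 with DAT 50 µM, against 0.174%. At an unadjusted p under 0.05 there were 6 and 11. The enzymes' median changes were -0.09 and -0.10. With the array number as a block, 3 genes passed with AAF (Tm7sf2 at 0.46, Mylip at 0.29 and Nsdhl at -0.22) and 4 with DAT (Hmgcs1 at -0.24, Sqle at -0.22, Nsdhl at -0.21 and Dhcr7 at -0.36). Without AAF replicate 2, Tm7sf2 at 0.61 and Mylip at 0.38 passed. With a pseudocount of 64, Dhcr7 passed with DAT.

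In set 2 at 24 h, 9 enzymes and Stard4 fell with BaP 1.5 µM, against 1.19% of all genes lower, and the median of all 17 enzymes was -0.77. With DAT 700 µM, 10 enzymes and Stard4 fell, against 3.65% of all genes lower, with a median of -0.75. Npc1 rose there, against 4.17% of all genes higher. With MCA 20 µM, 10 enzymes fell, against 0.672% of all genes lower, with a median of -0.76. Hmgcs1, Mvd, Idi1, Fdft1, Sqle, Lss, Msmo1 and Nsdhl fell under all 3. None of the 17 enzymes had a change above 0 under any of the 3.

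Hmgcs1 read 6829, 7198 and 5245 in the controls, 3141, 3418 and 3125 with BaP, 3410, 3982 and 3330 with DAT and 3111, 3551 and 2951 with MCA. Every treated array lay below every control array. The changes were -0.90 ± 0.15 (adjusted p = 0.000772), -0.79 ± 0.15 (adjusted p = 0.00103) and -0.91 ± 0.15 (adjusted p = 0.00102).

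Idi1 read 1259, 1361 and 1559 with BaP, 1541, 1681 and 1255 with DAT and 1185, 1158 and 1207 with MCA, all below the control values. The changes were -0.87 ± 0.22 (adjusted p = 0.0286), -0.78 ± 0.22 (adjusted p = 0.0241) and -1.09 ± 0.22 (adjusted p = 0.00712). Nsdhl read 1278, 1421 and 1447 with BaP, 1570, 1568 and 1536 with DAT and 1363, 1363 and 1294 with MCA, against 2704, 3056 and 2557. It had the smallest adjusted p of the sterol genes for BaP and for MCA, with changes of -0.94 ± 0.12 (3.32e-05) and -0.98 ± 0.12 (3.51e-05).

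Stard4 read 1849, 2454 and 2436 with BaP, 1951, 2466 and 2304 with DAT and 2136, 2535 and 2216 with MCA, below all control arrays. The changes were -0.67 ± 0.16 (adjusted p = 0.0257), -0.68 ± 0.16 (adjusted p = 0.00908) and -0.62 ± 0.16, the last of which missed the threshold (adjusted p = 0.0615, or 4.48e-07 with the array number as a block). Abca1 read 866, 1067 and 860 with BaP and 737, 1156 and 901 with MCA, below every control array, at -0.70 ± 0.20 (adjusted p = 0.0564) and -0.69 ± 0.20 (adjusted p = 0.0851). With DAT it read 1448, 1521 and 1082 and overlapped them, at -0.19 ± 0.20 (adjusted p = 0.663). Npc1 read 689, 556 and 518 with DAT, above the controls, a rise of 0.49 ± 0.14 (adjusted p = 0.025).

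Same-numbered arrays of set 2 varied together. With the array number as a block 17 sterol genes passed for BaP and 18 for MCA, all lower, against 10 each without it. The share of all genes called under the block is not given, so the blocked counts have no such baseline. The blocked fit called Abca1 for both (adjusted p = 0.000147 and 0.000266) and Fdps for both (1.99e-07 and 7e-08). Single arrays moved these counts. Without control replicate 1 the BaP count was 4, and without control replicate 2 the counts were 5 for BaP, 7 for DAT and 6 for MCA. Without BaP replicate 2 the BaP count was 5, without DAT replicate 1 the DAT count was 7, and without MCA replicate 2 the MCA count was 5. Centring each array on its median left 7 for DAT, without Npc1, and moved the higher share of all calls from 49.5% to 24.4% for BaP (63.7% on deposited values) and from 48.2% to 23.6% for MCA. The actin 3′ over 5′ ratio was 0.403, 0.38 and 0.42 log2 units in the groups treated with BaP, DAT and MCA, against 0.289 in the controls. The Gapdh ratio was -0.341, -0.345 and -0.338 against -0.318, and the part of both was not tested.

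AAF at 10 µM left all 28 sterol genes under the threshold in limma's fit, against 0.0237% of all genes, with 1 at an unadjusted p under 0.05 (Nsdhl at -0.29 ± 0.12). The count was 0 under every alternative run. All 17 enzymes had values below 0, with a median of -0.24.

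**Figure D3:**
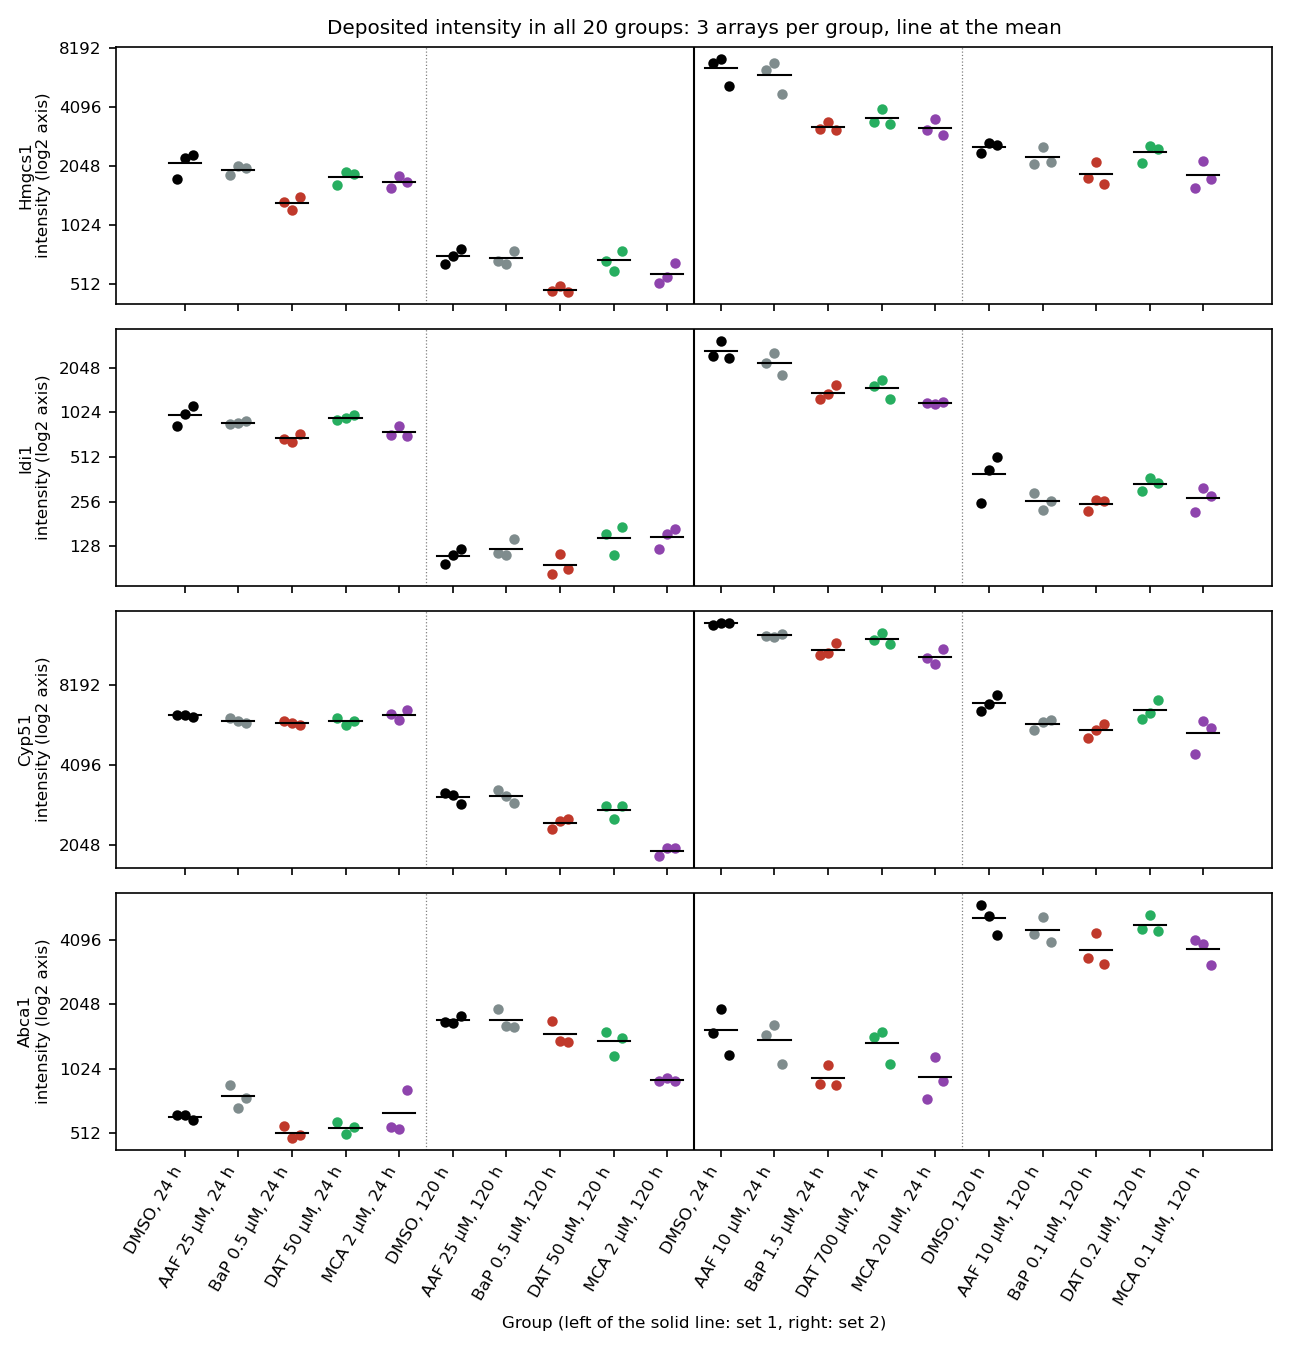
Deposited intensity (log2 axis) of Hmgcs1, Idi1, Cyp51 and Abca1 on all 60 arrays, by group, with a line at each mean. At 24 h in set 2, Hmgcs1 and Idi1 lie lower with BaP, DAT and MCA than with DMSO, and at 120 h in set 1 Abca1 and Cyp51 lie lowest with MCA.

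The fall of most enzymes seen at 24 h with BaP 0.5 µM was not seen at 120 h under any treatment of set 1. Some enzymes rose while others fell. Abca1 fell with MCA, and with DAT by a call that was lost without any 1 of the 6 arrays. In these same comparisons all 11 genes of cell division rose, with median changes of 0.86 for BaP, 0.94 for DAT and 1.25 for MCA, and their part in the sterol values was not tested. For BaP, DAT and MCA the shares of all genes called were also higher than at 24 h. Counts over all sterol genes lay near or below these shares, and their values are given as a description. Of the 17 enzymes alone, 5 fell and 2 rose with BaP, against 12.9% of all genes lower and 13.8% higher. The 5 lay above that share, and 14 of the 17 had changes below 0, with a median of -0.09. With DAT 3 enzymes rose and 0 fell, against 11.7% higher and 12.0% lower. With MCA 4 fell and 2 rose, against 20.2% lower and 18.8% higher.

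With BaP at 0.5 µM, 5 sterol genes fell, against 12.9% of all genes lower, and 3 rose, against 13.8% higher. Hmgcs1 read 473, 502 and 468, below all control arrays at 648, 712 and 777, a change of -0.60 ± 0.09 (adjusted p = 6.43e-06). Pmvk, Sqle, Cyp51 and Nsdhl fell by 0.29 ± 0.09, 0.37 ± 0.05, 0.27 ± 0.05 and 0.17 ± 0.06. Mvd rose by 0.43 ± 0.11, with values of 52.7, 71.4 and 52 above controls of 36.2 to 42.3, and Ebp and Npc1 rose by 0.27 ± 0.08 and 0.29 ± 0.09. None of those Mvd controls lay above the array median. The Mvd call was lost in the fit of all 60 arrays and with the mean of all its probe sets. Idi1 read 83.6, 114 and 89.7 and overlapped the controls, and its change of -0.23 ± 0.11 passed only with the array number as a block (adjusted p = 0.0392). Stard4 at 309, 267 and 291 and Abca1 at 1711, 1386 and 1363 overlapped them as well. The count of 8 was 5 without control replicate 3, and 5 on deposited values, and Ebp, Npc1, Nsdhl and Pmvk lost their calls without single arrays, with adjusted p up to 0.0718, 0.0976, 0.273 and 0.0876. Median centring moved the higher share of all calls from 51.6% to 62.6%.

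With DAT at 50 µM, 4 sterol genes rose, against 11.7% of all genes higher, and Abca1 fell, against 12.0% lower. Idi1 read 155, 113 and 172, a rise of 0.39 ± 0.11 (adjusted p = 0.0139), with an overlap in deposited intensity and none after normalization. Fdps rose by 0.39 ± 0.07 (adjusted p = 4.8e-05) from 357 to 374 in the controls to 532, 425 and 471. Msmo1 rose by 0.23 ± 0.06 and Insig1, at 562, 491 and 645, by 0.35 ± 0.12. Abca1 read 1515, 1174 and 1430 against 1696, 1671 and 1804, a fall of 0.31 ± 0.11 (adjusted p = 0.0446), and the call was lost without any 1 of the 6 arrays (adjusted p up to 0.142). The count was 2 without control replicate 1, 3 without DAT replicate 2 and 0 in the fit of all 60 arrays. Idi1 and Insig1 also lost their calls without single arrays (adjusted p up to 0.0808 and 0.125).

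With MCA at 2 µM, 6 sterol genes fell, against 20.2% of all genes lower, and 4 rose, against 18.8% higher. Abca1 read 892, 922 and 896, far below every control array, a fall of 0.94 ± 0.11 (adjusted p = 9.8e-08), or 1.92 fold. Cyp51 read 1870, 1997 and 1997 against controls of 3226, 3178 and 2934, a fall of 0.66 ± 0.05 (adjusted p = 5.62e-12). Both calls held in every fit that left out 1 array. Hmgcs1 (522, 555 and 654), Sqle, Dhcr7 and Scap fell by 0.31 ± 0.09, 0.44 ± 0.05, 0.31 ± 0.08 and 0.24 ± 0.09.

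Idi1 rose with MCA 2 µM, at 123, 156 and 169, by 0.42 ± 0.11 (adjusted p = 0.00421), and Fdps by 0.22 ± 0.07. Stard4 read 274, 299 and 357, a rise of 0.31 ± 0.11 (adjusted p = 0.0261), and Insig2 rose by 0.33 ± 0.07. The deposited values of Idi1, Stard4 and Hmgcs1 overlapped the controls by 1 array each, and their normalized values did not. Nsdhl read 238, 275 and 270, overlapping the controls, and did not pass. Scap and Stard4 lost their calls without single arrays, with adjusted p up to 0.13 and 0.154, and the fit of all 60 arrays called 4 sterol genes in place of 10. Median centring moved the higher share of all calls from 48.2% to 62.7%. Of the other sterol genes outside the 28, 5 of 17 rose, among them Lbr and Scarb1 at 0.70 and 0.31, and 4 fell, among them Lrp1 and Lipa at -0.66 and -0.40.

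AAF at 25 µM gave 0 calls among the 28 in limma's fit at 120 h, against 0.356% of all genes, with 2 at an unadjusted p under 0.05 (Msmo1 at 0.16 and Srebf2 at 0.14), and 0 under every alternative run. Hmgcs1 read 673, 650 and 759, Idi1 115, 112 and 144 and Abca1 1956, 1613 and 1605, each overlapping the controls.

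Because set 1 used 1 concentration per chemical at both times, the response at 120 h could be tested against that at 24 h. For BaP, 7 sterol genes had a higher response at 120 h, against 4.99% of all genes. These were Mvd, from -0.43 to 0.43, Stard4, from -0.54 to 0.15, and Fdft1, Dhcr7, Lss, Msmo1 and Nsdhl, with differences of 0.30 to 0.47. Hmgcs1 and Sqle were not among them, with responses of -0.65 and -0.60 and of -0.36 and -0.37. The Nsdhl and Lss calls were lost without single arrays, with adjusted p up to 0.157 and 0.0836.

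For DAT, 3 genes had a higher response at 120 h, Fdps, Msmo1 and Stard4, with differences of 0.46 ± 0.09, 0.38 ± 0.09 and 0.53 ± 0.16, against 4.90% of all genes. Stard4 lost its call without any 1 of 8 of the 12 arrays (adjusted p up to 0.106). For MCA, 5 genes had a higher response at 120 h, against 14.8% of all genes. Idi1 went from -0.37 to 0.42, Stard4 from -0.39 to 0.31, Fdps from -0.31 to 0.22, and Mvd and Fdft1 differed by 0.50 ± 0.15 and 0.33 ± 0.11. In 4 genes the response was lower at 120 h, against 13.3% of all genes. Abca1 differed by -0.98 ± 0.16, Cyp51 by -0.68 ± 0.06, Scap by -0.41 ± 0.12 and Sqle by -0.36 ± 0.07. Fdft1 and Scap lost their calls without single arrays (adjusted p up to 0.0877 and 0.0503). Median centring moved the higher share of all calls from 59.8% to 74.0% for DAT and from 52.7% to 70.8% for MCA. For AAF 25 µM 0 sterol genes passed in limma's fit, against 0.0553% of all genes, with 4 at an unadjusted p under 0.05 and 0 under every alternative run.

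**Figure D4:**
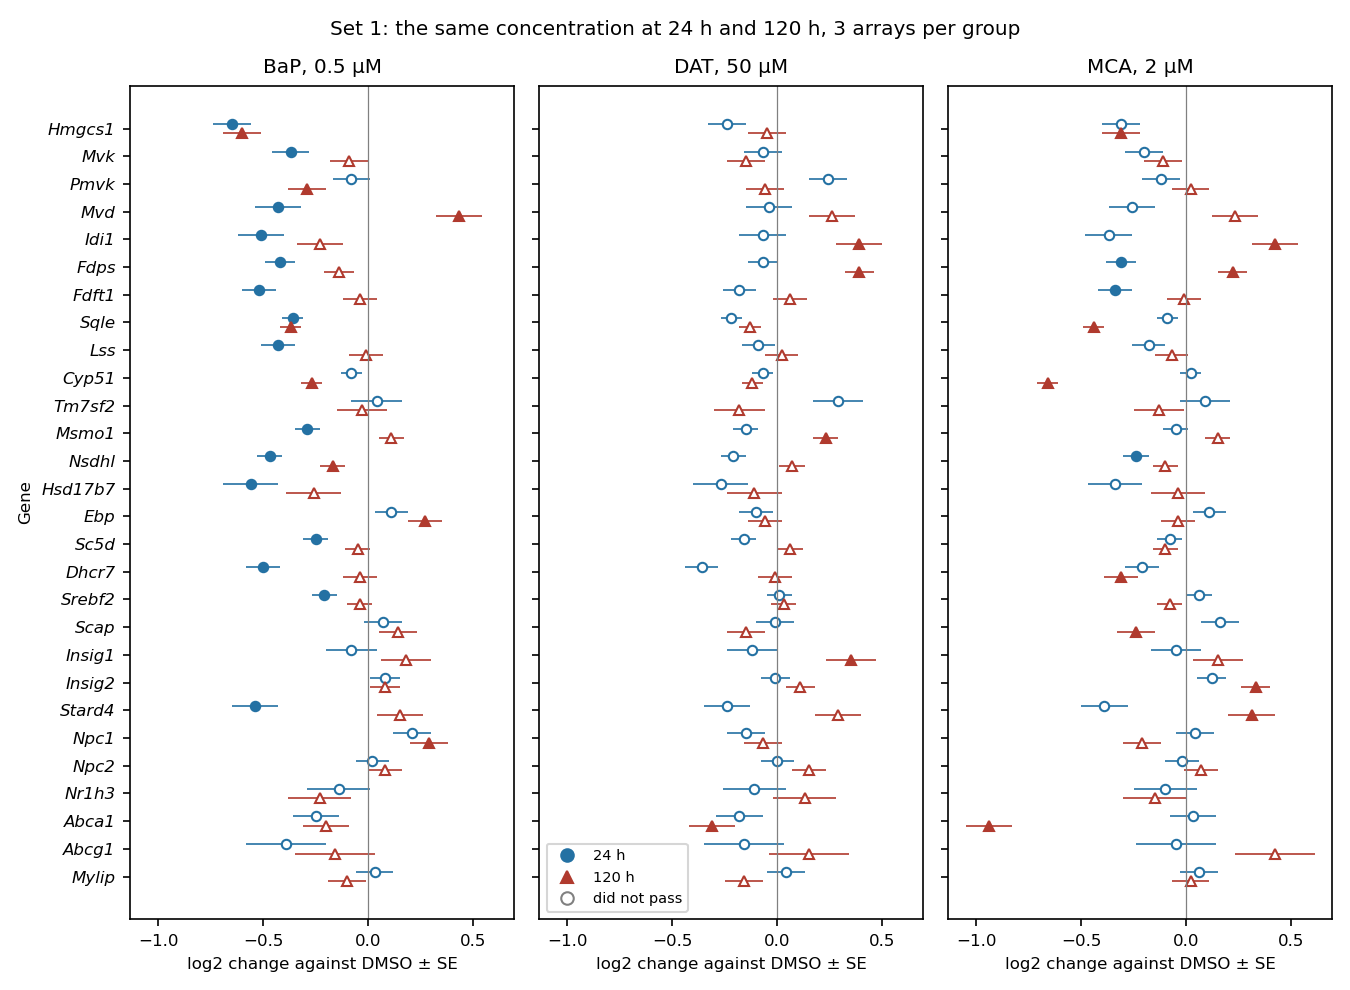
Log2 change ± SE of each sterol gene against DMSO of the same time in set 1 (x axis) for BaP, DAT and MCA, at 24 h (blue circles) and 120 h (red triangles), filled where the adjusted p passed 0.05. For BaP the blue points of 15 of the 17 enzymes lie left of 0, the red points of Hmgcs1 and Sqle lie beside their blue ones and that of Mvd lies right of 0, and for MCA the red points of Abca1 and Cyp51 lie farthest left.

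The low concentrations of set 2 at 120 h changed few sterol genes. Cyp51 was the 1 gene called with BaP 0.1 µM, against 0.490% of all genes lower, and with MCA 0.1 µM, against 1.16% lower. It read 6558, 6945 and 7510 in the controls, 5213, 5553 and 5869 with BaP and 4514, 6027 and 5668 with MCA. Every treated array lay below the controls, and the falls were 0.37 ± 0.09 (adjusted p = 0.0223) and 0.41 ± 0.09 (adjusted p = 0.00475). Hmgcs1 was lower on every treated array too, at 1777, 2155 and 1655 and at 1574, 2174 and 1753 against 2388, 2693 and 2605, but did not pass (adjusted p = 0.0992 and 0.0543). Abca1 read 3384, 4432 and 3177 and 4114, 3927 and 3118, against 5999, 5307 and 4305, at -0.52 ± 0.20 and -0.48 ± 0.20 (adjusted p = 0.266 and 0.299), and 1 array of the BaP group overlapped the controls.

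The Cyp51 call with BaP was lost without BaP replicate 1 or 2 or control replicate 2 or 3, with adjusted p up to 0.154, and that with MCA without MCA replicate 1 (adjusted p = 0.0556). Both calls were also lost in the fit of these groups alone and when arrays were centred on their median, which moved the median of all genes for BaP to 0.14 and the higher share of calls from 65.6% to 85.4%. Without control replicate 1, Idi1 passed as well, at -0.86 with BaP and -0.79 with MCA, and Hmgcs1 passed with MCA at -0.66 without MCA replicate 2. With the array number as a block, 5 genes passed with MCA, which were Cyp51, Hmgcs1, Fdps, Stard4 and Abca1, all lower.

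AAF 10 µM and DAT 0.2 µM gave 0 calls in limma's fit at 120 h, against 0.545% and 0% of all genes, with 4 and 3 sterol genes at an unadjusted p under 0.05. With the array number as a block, 7 passed with AAF, of which Tm7sf2, Srebf2 and Scap were higher and Idi1, Cyp51, Sc5d and Stard4 lower. In the fit of all 60 arrays, Cyp51 and Srebf2 passed with AAF. Without AAF replicate 2, Srebf2 passed at 0.84, and without control replicate 1, Idi1 passed at -0.91. Genes of cell division had median changes of -0.43 with AAF, where 3 of 11 fell, -0.02 with DAT, where none did, -0.21 with BaP, where 1 fell, and -0.13 with MCA, where 3 fell, and their part was not tested. The response to AAF 10 µM did not differ between the times for any sterol gene in limma's fit, against 0% of all genes, with 2 at an unadjusted p under 0.05 and 0 under every alternative run.

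BaP and MCA are both polycyclic aromatic hydrocarbons, and MCA carries a methyl group and a fused 5-membered ring that BaP lacks. They were given at the same concentration only once, 0.1 µM for 120 h in set 2, which made 1 pair to compare. No sterol gene differed between them in limma's fit, against 0.0791% of all genes, with 0 at an unadjusted p under 0.05 and 0 under every alternative run. The difference BaP minus MCA was 0.04 for Cyp51 (95% interval -0.13 to 0.22), 0.02 for Hmgcs1 (-0.28 to 0.33), -0.04 for Abca1 (-0.44 to 0.37) and 0.04 for Fdps (-0.71 to 0.79). A difference within these limits could not be seen, and the compounds are not shown to act alike. At their other concentrations, 0.5 and 2 µM or 1.5 and 20 µM, doses differed and no comparison was made.

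The synthesis enzymes and the exporter Abca1 can be set side by side over all 20 groups. Abca1 does not stand for efflux as a whole, because the other exporter, Abcg1, changed by -0.79 in the set 1 controls. The mean of the 4 LXR and efflux genes was 0.39 ± 0.06 (SD, n = 3) in the 120 h controls of set 1. In those of set 2 it was 0.63 ± 0.12. Relative to the 24 h controls of the same set, the mean of the 17 enzymes was -1.68 ± 0.04 (SD, n = 3) in the 120 h controls of set 1 and -1.45 ± 0.24 in those of set 2. The difference, enzymes minus Abca1, was then -3.19 ± 0.08 and -3.27 ± 0.51. All 30 arrays at 120 h had an enzyme mean of -1.19 or lower and a difference of -2.27 or lower. At 24 h the enzyme mean was -0.34 ± 0.03 with BaP 0.5 µM, -0.69 ± 0.07 with BaP 1.5 µM, -0.61 ± 0.04 with DAT 700 µM and -0.72 ± 0.09 with MCA 20 µM.

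At 24 h the difference lay near 0 where both the enzymes and Abca1 were lower than in the controls. It was -0.09 ± 0.03 with BaP 0.5 µM, 0.02 ± 0.23 with BaP 1.5 µM and -0.03 ± 0.36 with MCA 20 µM, and -0.41 ± 0.29 with DAT 700 µM, where Abca1 overlapped the controls. The lowest enzyme mean at 24 h and the highest at 120 h, on single arrays of set 2, were -0.81 and -1.19, so the times did not overlap. Among 120 h groups of set 1, MCA 2 µM had the difference nearest 0, -2.32 ± 0.06, with an enzyme mean of -1.76 ± 0.04 beside -1.68 in the controls. These means describe the lists and were not tested.

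**Figure D5:**
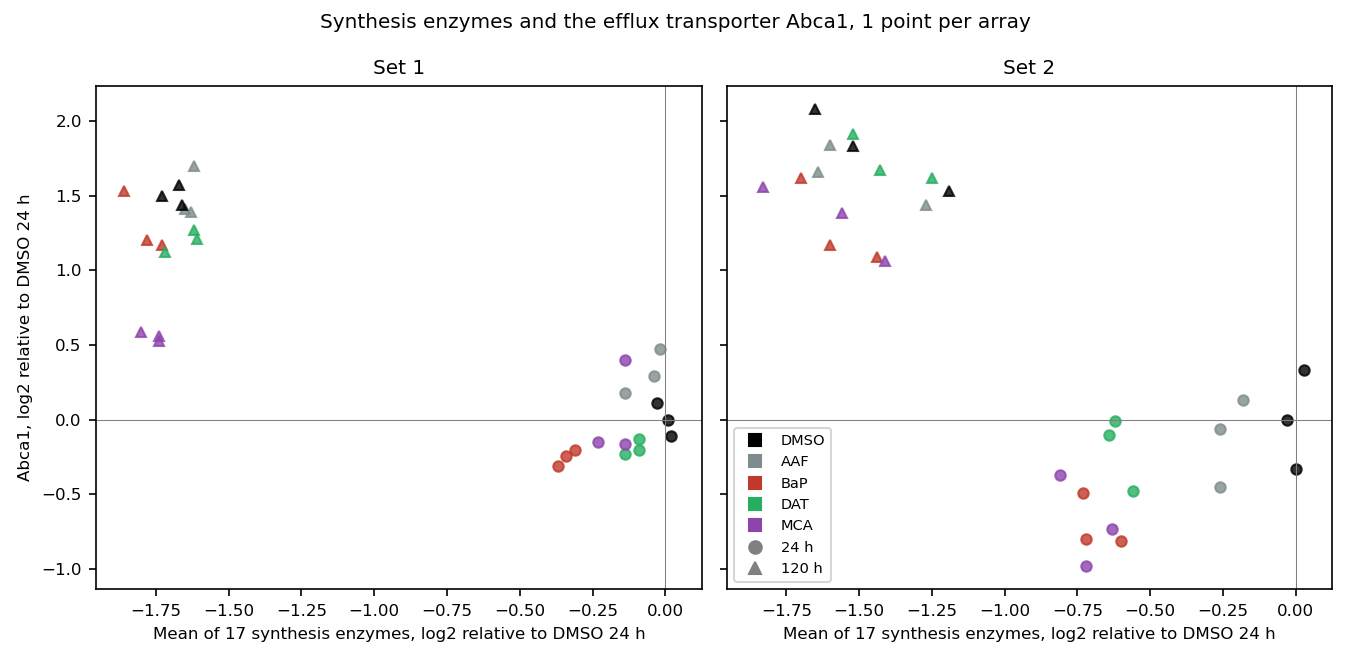
Mean of the 17 synthesis enzymes (x axis) and Abca1 (y axis) on each array, both as log2 relative to the mean of the 24 h controls of the same set, with circles for 24 h and triangles for 120 h. The 120 h arrays lie at upper left, with lower enzymes and higher Abca1, and in set 2 the 24 h arrays of BaP and MCA lie at lower left of the controls, with both lower.

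Over the 16 treatment comparisons in the fit without a block, 5 sterol genes passed in none, 8 in 1, 3 in 2, 3 in 4, 5 in 5 and 4 in 6. The 4 were Hmgcs1, Sqle and Nsdhl, lower in all 6, and Idi1, lower in 4 and higher in 2. Tm7sf2, Npc2, Nr1h3, Abcg1 and Mylip passed in none in that fit, although Tm7sf2 and Mylip passed with AAF when the array number was a block. The same tally over all genes was not made, so these counts only describe the list. Different probe sets of a gene mostly had the same sign of change over time, with sizes that could differ. Of 33 other probe sets of these genes, 17 lay above the median on all 60 arrays, and 17 of these had the sign of the set used in set 1 and 16 in set 2, the exception being 1 of Insig2. Sizes differed for Srebf2, as given with the regulators, and among others for Sc5d, where a dimmer probe set changed by -0.92 and -0.33 against -1.76 and -1.13. The sets used for Hmgcs1, Fdft1, Hsd17b7 and Lss carry design suffixes for probes that can match related transcripts.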

How the data were processed

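Single-colour oligonucleotide arrays of 45101 probe sets measured RNA in 20 groups of 3, grouped by treatment, concentration, time and set as the labels give them. The deposited values are 1 linear intensity per probe set and array. The authors used GCOS, per the submitters' processing notes; its version, background correction and scaling are not given in the sources used here.

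Gene names came from the platform table, brought up to date through gene identifiers. The brightest probe set stood for a gene, which was tested if that set lay above the array median on at least 3 arrays. Values were log2(intensity + 16), quantile normalized within each set. Each set of 30 arrays was fitted with limma 3.58.1 in R 4.3.3 (10 group means, mean-variance trend, 20 residual degrees of freedom). Tests were two-sided, p-values were adjusted over 12650 genes by the Benjamini-Hochberg method, the threshold was 0.05, and the fit was checked on simulated data. Sets were fitted apart because their spreads were known to differ. The number of arrays limits the precision.

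The members, lists and tests were chosen with earlier results of these data known. Values of every array are given for members that passed in both time comparisons and were among the 3 largest changes of their role, and for the 3 enzymes and 2 other members called in most treatments; Cyp51 and other members were singled out after their values were seen.

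Same-numbered arrays were checked for pairing by the correlation of their deviations from group means, which averaged 0.047 to 0.471 over comparisons in set 1 and 0.184 to 0.38 in set 2, against -0.229 to -0.013 and -0.19 to -0.091 for other numbers. All 3 pairs passed 0.1 in 6 of 9 and 8 of 10 comparisons, where blocked counts are given if they moved by over 1.5 times. No label states what same-numbered arrays share, so the pairing rests on the same-number correlations.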

Additional observations from a re-analysis of the deposited data

Results flagged for a closer look

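Responses to the same concentration in set 1 differed between 24 h and 120 h for several sterol genes, by limma's test of the difference (response at 120 h minus response at 24 h, log2). For BaP 0.5 µM the differences were 0.86 for Mvd, 0.69 for Stard4, 0.47 for Fdft1, 0.46 for Dhcr7, 0.41 for Lss, 0.40 for Msmo1 and 0.30 for Nsdhl. For DAT 50 µM they were 0.53 for Stard4, 0.46 for Fdps and 0.38 for Msmo1. For MCA 2 µM they were 0.79 for Idi1, 0.70 for Stard4, 0.53 for Fdps, 0.50 for Mvd and 0.33 for Fdft1, and -0.98 for Abca1, -0.68 for Cyp51, -0.41 for Scap and -0.36 for Sqle. Of all genes tested, 4.99% had a higher response at 120 h for BaP and 4.90% for DAT, and for MCA 14.8% had a higher and 13.3% a lower one, which the counts of 5 and 4 of 28 sterol genes lie near. The genes of cell division also had higher responses at 120 h than at 24 h under these 3 chemicals, 11 of 11 in each, and their part was not tested.

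Abcg1 was lower on every 120 h control array of set 1, at -0.79, and higher on every one of set 2, at 0.36, where the change did not pass (adjusted p = 0.575). The difference between the sets was not tested, and Abcg1 lay above the array median on none of the 6 control arrays of set 2.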

How the results depend on the processing

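Of 139 called results of single sterol genes, none changed direction under any alternative run. Calls lost numbered 44 in 1 fit of all 60 arrays, 19 in fits of the compared groups alone, 26 on deposited values, 34 with arrays centred on their median, 2 and 1 with pseudocounts of 1 and 64, 6 without the filter, 31 with the mean of all probe sets, 0 with the replicate block and 42 in at least 1 fit without 1 array. The replicate block added 70 calls. Counts that moved by over 1.5 times follow, with causes not tested. In 1 fit of all 60 arrays, set 1 counts were 6 (BaP 24 h), 0 (MCA 24 h), 3 (BaP 120 h), 0 (DAT 120 h) and 4 (MCA 120 h), its differences between times 2 (BaP), 0 (DAT) and 4 (MCA), and set 2 counts 16 (BaP 1.5 µM), 18 (MCA 20 µM) and 2 each for AAF, BaP and MCA at 120 h. Fits of the groups alone gave 0 for MCA 2 µM at 24 h and for BaP and MCA 0.1 µM. Deposited values gave 0 (MCA 2 µM, 24 h), 5 (BaP 0.5 µM, 120 h), 2 (DAT 50 µM, 120 h) and 0 (BaP 0.1 µM), and 3 (BaP) and 1 (DAT) for differences between times. Median centring gave 1 (MCA 2 µM, 24 h), 3 (DAT 50 µM, 120 h), 7 (DAT 700 µM), 0 (BaP and MCA 0.1 µM), and 3 and 1 for those differences. A pseudocount of 64 gave 1 (DAT 50 µM, 24 h), 5 (MCA 2 µM, 24 h) and 5 (DAT, between times). The mean of probe sets gave 3 (DAT 50 µM, 120 h), 1 and 5 (DAT and MCA between times) and 0 (BaP and MCA 0.1 µM).

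With the replicate block the counts were 3 for AAF 25 µM, 4 for DAT 50 µM and 6 for MCA 2 µM at 24 h, 11 for DAT 50 µM at 120 h, 8 for DAT between times, 17 for BaP 1.5 µM, 18 for MCA 20 µM, 7 for AAF 10 µM at 120 h, 6 for BaP 0.1 µM, 2 for DAT 0.2 µM and 5 for MCA 0.1 µM. Numbers did not pair the arrays by the check in MCA 2 µM at 24 h, DAT 50 µM at 120 h, BaP 0.1 µM, DAT 0.2 µM and the set 1 time comparison. No other count moved by over 1.5 times. The shares of all genes called under the block are not given beside these counts, which only describe the list.

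Leaving out 1 array gave 24 to 25 and 20 to 20 for time in sets 1 and 2. At 24 h it gave 0 to 2 (AAF 25 µM), 12 to 15 (BaP 0.5 µM), 0 to 0 (DAT 50 µM), 0 to 5 (MCA 2 µM), 0 to 0 (AAF 10 µM), 4 to 10 (BaP 1.5 µM), 7 to 11 (DAT 700 µM) and 5 to 9 (MCA 20 µM). At 120 h it gave 0 to 0, 5 to 8, 2 to 5 and 8 to 10 for AAF, BaP, DAT and MCA in set 1 and 0 to 1, 0 to 2, 0 to 0 and 0 to 2 in set 2. Between times it gave 0 to 0, 5 to 8, 2 to 4 and 8 to 10 in set 1 and 0 to 0 for AAF 10 µM, and 0 to 0 for BaP against MCA. With 3 arrays a group, set 2 values near the threshold rest on single arrays, and Nr1h3 and Abcg1 in set 2 are limited by signals under the array median.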
